A study of Mus musculus and Homo sapiens with 12 samples.

Results

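Interferon-stimulated genes were followed in tumours of 2 pancreatic ductal carcinoma models, each comparing a line with a derivative selected in vivo for metastasis to the liver. The members were chosen by name, as 49 gene symbols matched in capitals to the first column of the comparison table of each model. Of these symbols, 44 were found among the 23201 genes of the mouse table and 45 among the 18190 genes of the human table, with 41 in both and 48 in either. An adjusted p was listed for 42 of the mouse and 44 of the human members. RIGI was found in neither table and is the current name of DDX58, which was found in both. IFI6, OAS1, OASL and HERC5 were found in the human table only, and Oas1a, Oasl1 and Oasl2 in the mouse table only.

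The mouse model is KPC, a pancreatic ductal carcinoma line, with KPC LM2, its liver metastatic derivative of the 2nd generation. The human model is PANC1, an established pancreatic ductal carcinoma line, with PANC1 LM3, its liver metastatic derivative of the 3rd generation. All 4 groups hold 3 biological replicates (12 samples), are labelled WT for genotype, and received 500000 cells into the spleen on day 1, with tumours harvested from the liver on day 21. The labels do not give the strain, age or immune state of the host animals, how many animals stand behind a sample, or whether a selected line is 1 clone. The sample titles name cells, whereas the extraction protocol names tumours taken out of the animal, so the share of host tissue in each library is not known from the labels. If the replicates are not separate animals, the p-values measure only the spread between these samples.

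Interferons are secreted proteins by which cells signal infection or the presence of misplaced nucleic acid. Type I interferon binds the receptor pair IFNAR1 and IFNAR2, and the kinases JAK1 and TYK2 then activate STAT proteins, of which STAT2 enters the nucleus with IRF9 in the complex ISGF3. ISGF3 binds the interferon-stimulated response element (ISRE), whereas interferon gamma acts through JAK1 and JAK2 and a STAT dimer at the gamma-activated site (GAS). The genes switched on in this way encode antiviral effectors, sensors of viral RNA, ubiquitin-like modifiers, and factors that amplify or end the response, and in some tumours a subset of them is expressed without infection.

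Each table gives, per gene, a mean normalised count over the libraries and a log2 fold change with its standard error (SE). It also gives a p from a Wald test made with DESeq2, adjusted by the Benjamini-Hochberg method. The adjustment covered the genes with a listed adjusted p, 20050 of 23201 in KPC and 17838 of 18190 in PANC1. A gene is called here where the adjusted p in the authors' deposited table is below 0.05. The column names do not say which line is the numerator, so values keep the sign they have in the table, and no sign is assigned to the parental or the selected line. Nor is it known that both tables put the groups in the same order. The tables hold 1 value per gene and comparison, so no level per sample, no overlap of groups and no sequencing depth can be given, and every error below is the listed SE.

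The labelled tumour cell type was checked against 8 ductal epithelial markers, and all 8 were listed in both tables, at mean normalised counts of 464 to 28158 in KPC and 45.4 to 49702 in PANC1. In KPC, Krt7 (log2 fold change 1.18) was called positive and Epcam (-1.14) negative, and the other 6 were not called. For PANC1, 5 of these 8 were called negative, among them KRT8, KRT18, KRT19 and CDH1 at log2 fold changes of -4.35, -3.35, -3.79 and -3.92. EPCAM (0.97) and SOX9 (0.70) were called positive there, and KRT7 (0.09) was not called. Of 22 leukocyte markers, 21 were listed in KPC, at 1.56 to 33.1 and at 207 in sum, and Nkg7 was not. Hepatocyte markers reached at most 26.7 in KPC (8 of 10 listed), and endothelial and stellate cell markers at most 28.5 (12 of 12 listed). In PANC1, 9 of 20 leukocyte markers were listed; CD68 was at 1103, PTPRC was at 2.26, and CD3E, CD3D and MS4A1 were not listed. Of 12 endothelial and stellate cell markers, 6 were listed in PANC1, with COL3A1 (count 405, 1.05) called positive and CDH5 (9.89, -4.09) negative. Of 10 hepatocyte markers, only CYP2E1 (7.56) was listed there. PANC1 values refer to human gene symbols, and reads from the host animal were not examined. In bulk samples of this kind, fewer cells of a type and less RNA per cell cannot be told apart.

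Promoter sequence shows the element through which many of these genes are known to be switched on. A window of 250 bases before to 50 bases after the start was available from RefSeq (mouse build GRCm38.p6, another build than the authors' mm39) for 35 of the 49 member symbols. The ISRE core was searched on both strands as GAAA, any 2 bases, GAAA, which reads TTTC, any 2 bases, TTTC on the other strand. It was found in 16 of 35 members (45.7%), against 3.99% of all 27025 genes and 3.44% of all 32851 windows. The palindromic GAS, searched as TTC, any 3 bases, GAA, was found in 6 of 35 members (17.1%) and in 9.55% of all genes. The motifs can overlap and were counted separately. A match is a description of these letters and not evidence of binding, and the members are genes known for their response to interferon.

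The stretches below are shown because they carry the core in promoters of members on both sides of the KPC result: the first group was called in KPC and the second was not. Sequences run 5′ to 3′ along the gene, coordinates are GRCm38.p6, and capitals mark every base of a core match. Ifitm3 and Ddx58 are shown for the first 30 bases from the start, since their matches lie there.
Gbp2 (chr3:142620574-142620633, plus strand): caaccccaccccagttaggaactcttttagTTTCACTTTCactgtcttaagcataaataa
Ifitm3 (chr7:141010715-141010744, minus strand): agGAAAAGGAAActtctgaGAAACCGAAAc
Ddx58 (chr4:40239796-40239825, minus strand): agTTTCGATTTCctatggccagccggctag
The second group holds members that were not called in KPC.
Gbp3 (chr3:142559975-142560034, plus strand): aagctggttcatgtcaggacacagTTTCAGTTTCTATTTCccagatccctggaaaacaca
Ifitm2 (chr7:140955978-140956037, minus strand): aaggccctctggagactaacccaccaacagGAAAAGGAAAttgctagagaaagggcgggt
Isg15 (chr4:156200855-156200916, minus strand): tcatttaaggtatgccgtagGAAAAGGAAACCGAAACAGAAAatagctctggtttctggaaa
Ifit1 (chr19:34640765-34640833, plus strand): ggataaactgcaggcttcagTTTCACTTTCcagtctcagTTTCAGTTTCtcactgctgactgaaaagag
Ifit3 (chr19:34583353-34583436, plus strand): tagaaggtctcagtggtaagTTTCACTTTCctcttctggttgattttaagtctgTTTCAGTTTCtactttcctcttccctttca
The core is present in both groups. Among the stretches shown, overlapping matches are seen in Isg15 and Gbp3. They were also found in Bst2 (called positive), Trim21 (not called) and Oas1a (no adjusted p), which are not shown. Over all members with a window and an adjusted p in KPC, the core was found in 4 of 11 called positive, in 11 of 21 not called and in 0 of 1 called negative. The longer form, the core followed by CT, was found in 4 of 11 called positive and 4 of 21 not called. No test of these shares was made.

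The first comparison asks how KPC and KPC LM2 tumours differ. In KPC, the members with a call were mostly listed as positive: IFITM proteins and tetherin, the PARP9 and DTX3L group, and single members of several other families. The IFIT and MX families, viperin and Isg15 had mean normalised counts of 4.46 to 21.8 with the exception of Ifit2 (407), and none of them was called. Other interferon-stimulated genes were called, with Oas2 and Cmpk2 negative and Oasl1, Bst2, Ifitm3 and Ddx58 among the positive ones. Of 42 members, 14 were called positive and 2 negative, which is 38.1% in all. Over all 20050 genes with an adjusted p, 10.4% were called, 5.77% positive and 4.60% negative. The median log2 fold change of the members was 0.47, against -0.08 over all genes, and 31 of 42 members had a positive sign.

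In this table the fold change varies with the level of a gene, so members were also read among genes of like count. Among genes averaging at least 64 normalised counts, 9 of 19 members were called positive (47.4%) and 0 negative, against 10.6% and 2.11% of all genes at that level. Their median was 0.80, and that of all genes was 0.22. Between 16 and 64, 4 of 12 members were called positive and 0 negative, against 3.87% of all genes positive and 304 of 3025 negative. Under 16, where the median of all genes was -1.43 and that of members -1.0, 1 of 11 was called positive and 2 negative (18.2%), against 0.124% and 5.68% of all genes at that level.

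**Figure D1:**
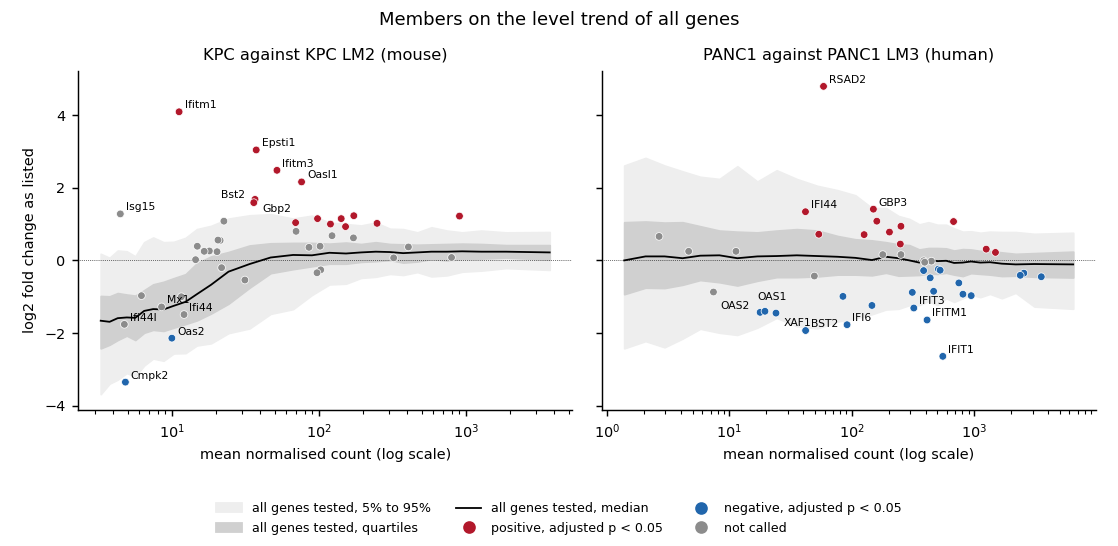
Log2 fold change as listed (vertical axis) against mean normalised count (horizontal log axis) in KPC and PANC1 panels: points are tested members coloured by call, the line is the median of all tested genes in ranges of count, and the grey bands are their quartiles and 5% to 95% range. In KPC the line is negative at low counts, all genes at 64 or more have a median of 0.22, and the 14 members called positive lie above the line.

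Among the IFITM proteins, which block entry of viruses at membranes, and tetherin, which holds budding virus at the cell surface, 3 of 4 were called positive. Ifitm3 had a mean normalised count of 51.9 and a log2 fold change of 2.48 ± 0.42 (SE) in the authors' deposited table (adjusted p by DESeq2's Wald test 6.01e-07). Bst2, which encodes tetherin, was listed at 36.8 and at 1.68 ± 0.43 in the authors' deposited table (adjusted p 0.00347). For Ifitm1 the authors' deposited table gives the most positive value of any member, 4.09 ± 1.15 at a count of 11.2 (adjusted p 0.00865). Its 95% interval runs from 1.84 to 6.33, so the size of this difference is poorly known. Ifitm2 was not called, at 172 and 0.62 ± 0.24 in the authors' deposited table (adjusted p 0.0770), and 40.9% of its exonic length is shared with the overlapping gene model Gm45717 on the same strand.

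PARP9 and DTX3L form a complex that modifies chromatin and viral proteins, and PARP12 and PARP14 are interferon-induced ADP-ribosyltransferases. Of these 5 members, with Parp10, 4 were called positive at similar sizes. Parp9 stood at 142 and 1.15 ± 0.27 (adjusted p 7.83e-04) and Dtx3l at 249 and 1.02 ± 0.27 (adjusted p 0.00446) in the authors' deposited table. Parp9 and Dtx3l share 458 exonic bases on opposite strands in the GENCODE annotation, 8.0% of the Dtx3l exons, and the strand setting of the counting is not given in the sources used here. Parp14 was listed at 98 and 1.15 ± 0.32 in the authors' deposited table (adjusted p 0.00716), and Parp12 at 120 and 1.00 ± 0.32 (adjusted p 0.0238). Parp10 was not called in the authors' deposited table, at 85.7 and 0.36 ± 0.32 (adjusted p 0.446).

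The OAS family makes or resembles the enzymes that answer double-stranded RNA with a second messenger, and its members were listed with both signs. Oasl1, a catalytically inactive relative, was positive at 2.16 ± 0.38, with a count of 76.3, in the authors' deposited table (adjusted p 1.76e-06). Oas2 was negative at -2.14 ± 0.75 with a count of 10 in the authors' deposited table (adjusted p 0.0461). Oas3 at 1.08 ± 0.58 (adjusted p 0.205) and Oasl2 at 0.56 ± 0.67 (adjusted p 0.590) were not called in the authors' deposited table, and Oas1a, at a count of 1.92, had no adjusted p. So the family holds 1 call of each sign among 4 tested members. The Oas2 call was lost on adjustment over every gene with a p (0.0534) and with the level trend subtracted (-0.92, adjusted p 0.619).

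The IFIT proteins bind viral RNA, and 0 of 3 were called. Ifit2 was listed at 407 and 0.37 ± 0.26 in the authors' deposited table (95% interval -0.14 to 0.88, adjusted p 0.332). Ifit1 was listed at 18 with 0.26 ± 0.54 and Ifit3 at 21.8 with -0.20 ± 0.53 in the authors' deposited table. Their 95% intervals were -0.79 to 1.32 and -1.24 to 0.84. The MX GTPases, which trap viral nucleoproteins, were at 8.51 for Mx1 (-1.28 ± 0.82) and 11.6 for Mx2 (-1.0 ± 0.76) in the authors' deposited table, and neither was called. Viperin, an enzyme that makes a chain-terminating nucleotide and is encoded by Rsad2, was listed at 6.21 and -0.97 ± 0.99 in the authors' deposited table (adjusted p 0.520). Cmpk2, the nucleotide kinase that is its neighbour, was called negative at a count of 4.83, at -3.35 ± 1.19 in the authors' deposited table (adjusted p 0.0480).

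Among the other induced proteins, 3 of 7 were called, all positive. Epsti1, known as an epithelial-stromal interaction gene, was at 37.5 and 3.04 ± 0.55 in the authors' deposited table (adjusted p 4.96e-06), which is 8.22-fold. Lgals3bp, a secreted glycoprotein that binds galectins, was at 906 and 1.22 ± 0.23 in the authors' deposited table (adjusted p 9.99e-06). Ifi27, a mitochondrial protein, was at 69.5 and 1.04 ± 0.36 in the authors' deposited table (adjusted p 0.0400). Not called were Ifi35 (0.39 ± 0.30), Xaf1 (0.55 ± 0.55), Ifi44 (-1.49 ± 0.69) and Ifi44l (-1.76 ± 1.05) in the authors' deposited table, and Sp110, at 1.84, had no adjusted p. The guanylate-binding proteins, GTPases that attack vacuoles of pathogens, gave 1 call of 2: Gbp2 at 36.1 and 1.59 ± 0.53 in the authors' deposited table (adjusted p 0.0338). Its neighbour in the family, Gbp3, was at 16.6 and 0.25 ± 0.63 (adjusted p 0.815).

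The sensors of viral RNA gave 1 call of 4. Ddx58, which encodes RIG-I, was at 152 and 0.93 ± 0.26 in the authors' deposited table (adjusted p 0.00898). Ifih1, which encodes MDA5, was at 123 and 0.68 ± 0.32 in the authors' deposited table (adjusted p 0.150). Dhx58 (0.24 ± 0.52) and Ddx60 (-0.54 ± 0.43) were not called in the authors' deposited table either. In the ISG15 system, which conjugates and removes a ubiquitin-like protein, 1 of 5 was called: Herc6, the mouse ligase for ISG15, at 173 and 1.23 ± 0.29 in the authors' deposited table (adjusted p 0.00113). Isg15 itself was at a count of 4.46 and 1.28 ± 1.09 in the authors' deposited table (adjusted p 0.434). Usp18, which removes ISG15 and damps the receptor, was at 14.5 and 0.02 ± 0.63, Trim21 at 0.80 ± 0.39 and Trim25 at 0.08 ± 0.18 in the authors' deposited table.

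Of the factors that drive these genes, 0 of 4 were called. Irf9 stood at 97.2 and -0.34 ± 0.28, and Stat2 at 103 and -0.26 ± 0.27, in the authors' deposited table. Irf1 (0.07 ± 0.22) and Irf7 (0.39 ± 0.58) were not called in the authors' deposited table either. The intervals for Irf9 and Stat2, -0.89 to 0.20 and -0.79 to 0.27, both hold 0.

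**Figure D2:**
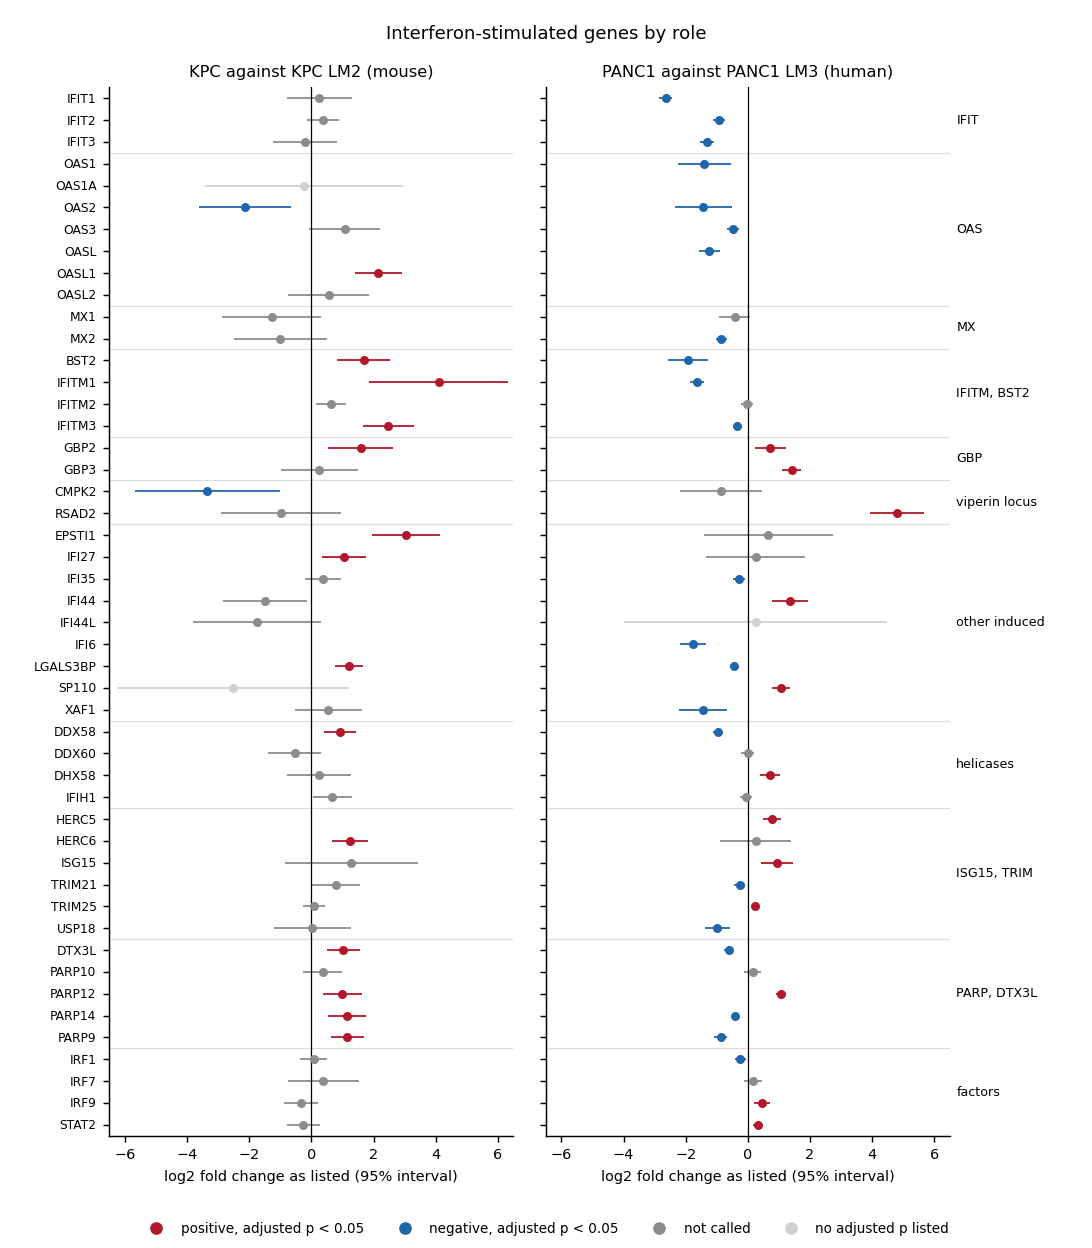
Log2 fold change as listed with its 95% interval (horizontal axis) for each member by role (rows), KPC and PANC1 in separate panels, red for called positive, blue for called negative, grey for not called and pale grey for no adjusted p. In KPC the called members of the PARP and IFITM groups are positive, while in PANC1 the IFIT and OAS families are negative throughout.

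Counts could be set per length in the mouse alone, from the GENCODE exonic length of all 44 listed members (mean normalised count per kilobase of exon; annotation of GRCm38). The range was 0.272 for Sp110 to 318 for Lgals3bp, with a median of 13.4. Ifitm2 followed Lgals3bp at 263, then Trim25 at 139, Ifit2 at 104 and Irf1 at 81.3. The lowest value of a member called positive was 10.2 per kilobase, for Ifitm1. Of 25 members at or above that value, which the calls themselves set, 14 were called positive, and of the 19 below it 2 were called negative. How far a low count limited the calls was not tested.

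**Figure D3:**
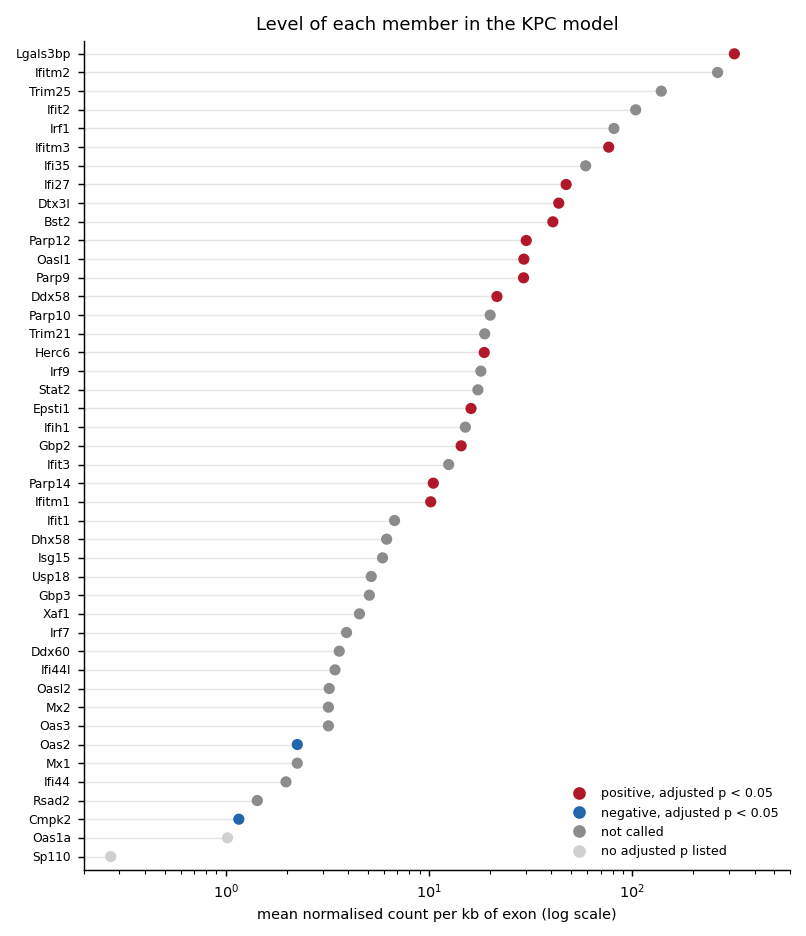
Mean normalised count per kilobase of exon (horizontal log axis) for each of the 44 members listed in KPC (rows, highest at the top), coloured by call. Lgals3bp is highest at 318, and the lowest of the 14 members called positive, Ifitm1, is at 10.2.

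The KPC calls depend on how the fold change is centred and on the test's distribution. After subtracting the running median of genes of like count, Dtx3l, Ddx58, Parp12, Ifi27, Oas2 and Cmpk2 lost their call (adjusted p 0.0647, 0.0618, 0.135, 0.148, 0.619 and 0.492), and 10 positive and 0 negative calls were left. Centring the table on genes at 64 counts or more instead ended the calls of Gbp2, Ddx58, Parp12 and Ifi27 (adjusted p 0.0712, 0.0569, 0.0852 and 0.110), and adjusting over every gene with a p ended those of Oas2 and Cmpk2 (0.0534 and 0.0555). When the statistic was referred to a t distribution (4 degrees of freedom) and not to the normal one, 0 of 42 members and 0 of all genes were called (smallest adjusted p over the members 0.430), while 16 members had an unadjusted p below 0.05. Since no gene at all was called, this setting cannot set the members apart from other genes. Of the leukocyte markers, 0 of 17 tested were called positive and 2 were called negative, Adgre1 at -2.88 ± 0.75 and Ms4a1 at -2.33 ± 0.74 in the authors' deposited table, and Ptprc stood at -1.27 ± 0.51. With the running median subtracted, Adgre1 (-1.86, adjusted p 0.141) and Ms4a1 (-1.68, adjusted p 0.197) were not called. Their part in the members' values was not tested.

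The second comparison asks how PANC1 and PANC1 LM3 tumours differ. In PANC1 the antiviral effectors of the IFIT, OAS and IFITM families were negative as listed wherever they were called, and so were IFI6 and BST2. Viperin, both guanylate-binding proteins, ISG15, SP110 and IFI44 were positive. Of 44 members, 12 were called positive and 22 negative, 77.3% in all. This share is to be read against a table in which 52.5% of 17838 genes were called, 26.0% positive and 26.5% negative. The median of the members was -0.28, and that of all genes was 0.00.

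Among the 32 members averaging at least 64 normalised counts, 18 were called negative (56.2%) and 9 positive (28.1%), against 36.5% and 32.7% of all genes at that level. With a log2 fold change beyond 1 in either sign also required, 14 of 44 members were called, against 15.5% of all genes. Of the 44 members, 9 were called below -1 and 5 were called over 1. Among all genes tested, 7.34% were called below -1 and 8.13% were called over 1. The positive share of the members is near the background of the table, and the negative share is above it.

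All 3 IFIT members were called negative. IFIT1 had the smallest adjusted p of any member, at a count of 554 and -2.64 ± 0.11 in the authors' deposited table (adjusted p by DESeq2's Wald test 4.95e-130). IFIT3 was at 321 and -1.31 ± 0.12 (adjusted p 1.05e-27), and IFIT2 at 809 and -0.93 ± 0.10 (adjusted p 5.24e-21), in the authors' deposited table. IFIT1, a binder of uncapped and incompletely capped viral RNA, thus had a value 6.23-fold away from equality, with an interval of -2.85 to -2.43 on the log2 scale that holds neither of the other values.

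All 4 OAS members were negative too. OASL was at 146 and -1.24 ± 0.17 (adjusted p 6.30e-13) in the authors' deposited table. OAS3, the member that prefers long double-stranded RNA, was at 437 and -0.48 ± 0.10 (adjusted p 3.41e-06) in the authors' deposited table. OAS1 at 19.5 (-1.40 ± 0.44, adjusted p 0.00343) and OAS2 at 17.8 (-1.43 ± 0.46, adjusted p 0.00491) were listed at low counts in the authors' deposited table. The MX genes gave 1 call of 2, MX2 at 466 and -0.85 ± 0.10 (adjusted p 3.92e-18) in the authors' deposited table, whereas MX1 was at 49.4 and -0.43 ± 0.26 (adjusted p 0.151).

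Of the IFITM group, 3 of 4 were called, each negative. IFITM1 was at 412 and -1.64 ± 0.11 in the authors' deposited table (adjusted p 1.06e-44). BST2 was at 41.9 and -1.93 ± 0.33 in the authors' deposited table (adjusted p 1.67e-08). IFITM3, at 2545, had the smaller value of -0.35 ± 0.07 in the authors' deposited table (adjusted p 2.18e-07). IFITM2 was not called in the authors' deposited table, at 447 and -0.02 ± 0.09. Its interval, -0.21 to 0.16, does not overlap that of IFITM1, -1.86 to -1.41. The IFITM genes resemble each other closely, and how the counting treated reads shared between them is not given in the sources used here.

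Viperin carried the most positive value among the members. RSAD2 was at a count of 58.7 and 4.79 ± 0.45 in the authors' deposited table (adjusted p 7.72e-26), which is 27.6-fold, with an interval of 3.91 to 5.66 on the log2 scale. CMPK2, listed at 7.40, was not called, at -0.87 ± 0.68 in the authors' deposited table (adjusted p 0.292). GBP3 was at 150 and 1.41 ± 0.16 (adjusted p 2.45e-18), and GBP2 at 53.7 and 0.72 ± 0.25 (adjusted p 0.0101), in the authors' deposited table. Both guanylate-binding proteins were therefore positive in PANC1.

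The other induced proteins divided, with 4 of 8 called negative and 2 positive. IFI6, a mitochondrial and endoplasmic reticulum protein that protects from cell death, was at 91.4 and -1.77 ± 0.21 in the authors' deposited table (adjusted p 7.34e-16). XAF1, which counters an inhibitor of apoptosis, was at 24.0 and -1.45 ± 0.39 (adjusted p 5.96e-04) in the authors' deposited table. LGALS3BP was at 3534 and -0.45 ± 0.06 (adjusted p 4.29e-13), and IFI35 at 386 and -0.28 ± 0.10 (adjusted p 0.0123), in the authors' deposited table. On the positive side were SP110, a nuclear body protein, at 160 and 1.08 ± 0.15 (adjusted p 1.94e-12), and IFI44 at 41.8 and 1.34 ± 0.30 (adjusted p 1.82e-05), in the authors' deposited table. EPSTI1 (count 2.66, 0.66 ± 1.06) and IFI27 (4.64, 0.25 ± 0.82) were not called in the authors' deposited table, and IFI44L, at 0.655, had no adjusted p.

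The helicases were split. DDX58 was at 945 and -0.97 ± 0.08 in the authors' deposited table (adjusted p 1.65e-35). DHX58, which encodes LGP2, a regulator of RIG-I and MDA5, was positive at 126 and 0.71 ± 0.16 (adjusted p 4.39e-05) in the authors' deposited table. IFIH1 (-0.05 ± 0.10) and DDX60 (-0.01 ± 0.10) were not called in the authors' deposited table, with intervals that lie between -0.25 and 0.18. In the ISG15 system 3 of 6 were positive and 2 negative, and modifier and protease had different signs. ISG15 was at 252 and 0.94 ± 0.26 (adjusted p 8.68e-04), and HERC5, the human ligase for ISG15, at 203 and 0.78 ± 0.14 (adjusted p 3.03e-07), in the authors' deposited table. USP18, the ISG15 protease, was at 84.6 and -0.99 ± 0.21 (adjusted p 6.36e-06) in the authors' deposited table. TRIM25, a ubiquitin ligase of RIG-I signalling, was at 1492 and 0.22 ± 0.07 in the authors' deposited table (adjusted p 0.00263). TRIM21, a ubiquitin ligase that binds antibody in the cytosol, was at 527 and -0.27 ± 0.09 in the authors' deposited table (adjusted p 0.00538). HERC6 was at 11.3 and was not called.

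In the PARP group 3 of 5 were negative and 1 positive. PARP9 was at 312 and -0.88 ± 0.11 (adjusted p 3.81e-14), DTX3L at 749 and -0.62 ± 0.08 (adjusted p 9.70e-15), and PARP14 at 2380 and -0.41 ± 0.06 (adjusted p 3.57e-11), in the authors' deposited table. PARP12 stood apart from them at 678 and 1.07 ± 0.09 (adjusted p 3.72e-31) in the authors' deposited table, and PARP10 at 0.16 ± 0.14 was not called. Among the factors, STAT2 (1254, 0.31 ± 0.07, adjusted p 3.31e-05) and IRF9 (249, 0.45 ± 0.13, adjusted p 8.55e-04) were positive and IRF1 (510, -0.24 ± 0.09, adjusted p 0.0197) was negative in the authors' deposited table. IRF7, the factor that amplifies interferon production, was at 179 and 0.16 ± 0.15 (adjusted p 0.394) in the authors' deposited table.

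The listed errors were smaller in PANC1 than in KPC, with median SEs of 0.09 and 0.24 over genes at 64 counts or more. CD68, the most abundant leukocyte marker in PANC1, was listed at 1.91 ± 0.07, and 2 of 8 leukocyte markers were called positive and 2 negative. Their part in the members' values was not tested. Under the same t distribution, 8 positive and 16 negative calls were left. The 10 members that lost their call were IRF9, ISG15, TRIM25, GBP2, IRF1, IFI35, TRIM21, OAS2, OAS1 and XAF1.

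**Figure D4:**
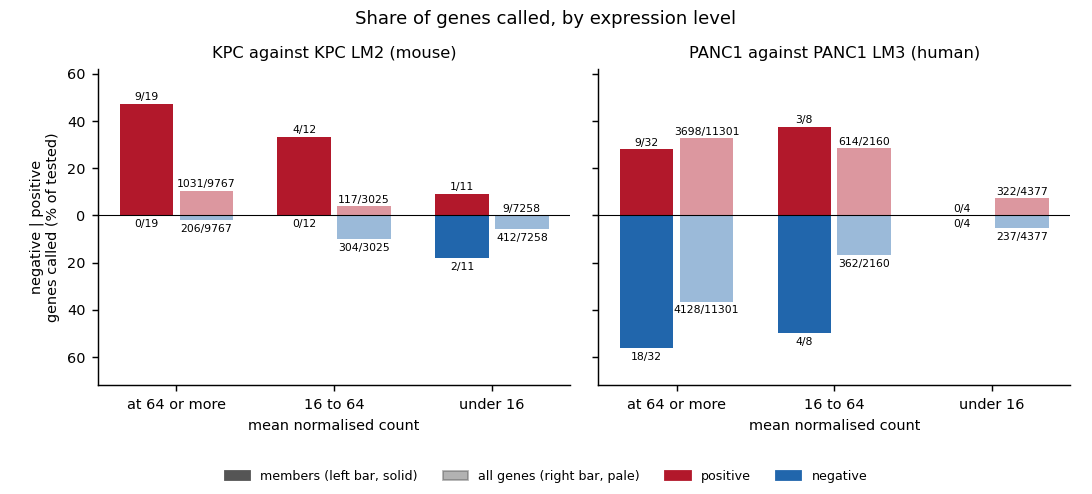
Percent of tested genes called at an adjusted p below 0.05 (vertical axis from 0, positive upwards in red and negative downwards in blue) among members (solid bars) and all genes (pale bars), by range of mean normalised count, for KPC and PANC1; numbers on the bars are genes called of genes tested. At 64 or more, 47.4% of KPC members are called positive against 10.6% of all genes, and 56.2% of PANC1 members are called negative against 36.5%.

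The models were then set against each other over the 39 members tested in both tables, which share no sample. The same sign was listed for 17 of them (43.6%), and for 46.6% of all 12777 symbols tested in both. With 1 table reversed in sign, 22 of 39 members (56.4%) and 53.4% of all symbols would share a sign. Of 11 members called in both, 8 were positive in KPC and negative in PANC1: LGALS3BP, PARP9, DDX58, BST2, IFITM3, DTX3L, IFITM1 and PARP14. GBP2 and PARP12 were positive in both and OAS2 was negative in both. No member was negative in KPC and positive in PANC1 among these. Over all genes called in both, 556 of 972 (57.2%) had opposite signs. Of these, 411 were positive in KPC and negative in PANC1, and 145 were the other way. If the tables order the groups differently, the 8 opposite calls are calls of the same sign and the 3 alike are opposite.

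The difference of the listed log2 fold changes, PANC1 minus KPC, was tested per symbol with the combined SE, a normal distribution and Benjamini-Hochberg adjustment over all 12777 symbols. It was called for 17 members (43.6%), against 34.9% of all symbols. PANC1 was lower for 14 of them and higher for 3. Over all symbols the called differences leaned the same way, with 2839 lower and 1614 higher. This test assumes that both tables put the groups in the same order. With the KPC table reversed in sign, 11 members were called, 4 lower and 7 higher in PANC1. Of all 12777 symbols, 3831 were called in that order, 1589 lower and 2242 higher. LGALS3BP, IFITM3, IFIT1 and RSAD2 were called under both orders, so for these the sizes of the fold changes differ between models whichever order holds. The same was so for 1713 of all 12777 symbols, so being called under both orders is not particular to the members. For IFIT1 the difference was -2.90 ± 0.55 (adjusted p 2.02e-06), and -2.37 with KPC reversed (adjusted p 1.76e-04). For IFITM3 it was -2.83 ± 0.43 (adjusted p 9.80e-10), and for LGALS3BP -1.66 ± 0.24 (adjusted p 5.98e-11). DDX58 and BST2 had values of like size and opposite sign, and were not called with KPC reversed (adjusted p 0.923 and 0.771).

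**Figure D5:**
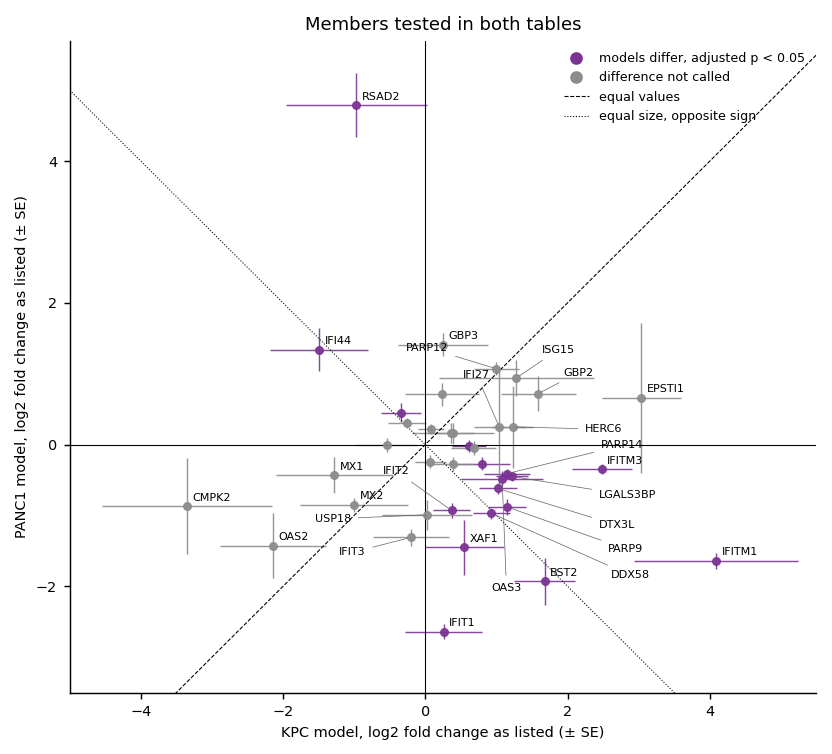
Log2 fold change as listed in PANC1 (vertical axis) against that in KPC (horizontal axis) for the 39 members tested in both, each with its SE, purple where the difference was called. A dashed line marks equal values and a dotted line equal size with opposite sign, and the 8 members called with opposite signs lie in the lower right quadrant.

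Other genes of the pathway were read from lists of ligands, receptors and kinases, further STAT and IRF factors, negative regulators and nucleic acid sensors. In KPC, 10.4% of all genes were called, and 12.7% of those at 64 counts or more. Positive calls were 5.77% and 10.6% of these genes. Of 41 pathway genes tested in KPC, 6 were called (14.6%), all positive. They included Socs3 (1.00 ± 0.28), Uba7 (1.51 ± 0.43), Aim2 (4.21 ± 0.41) and Cgas (0.93 ± 0.30) in the authors' deposited table. Uba7 is the activating enzyme of ISG15 and SOCS3 an inhibitor of JAK kinases, while AIM2 and cGAS are sensors of DNA. After subtracting the running median, Socs3 and Cgas lost their call (adjusted p 0.0741 and 0.0966). None of 9 receptor and kinase genes was called, and they lay between -0.23 (Jak2) and 0.56 (Ifngr2). Ligands were barely listed: Ifnb1 was not in the KPC table, and Ifng (3.70) and Ifnk (12.4) were not called.

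In PANC1, 12 of 39 were called positive and 12 negative, 61.5% in all. Over all genes 52.5% were called, and 69.3% of those at 64 counts or more, so the pathway share is near the background. Of 9 receptor and kinase genes, 4 were positive and 3 negative. IFNAR1 (-0.51 ± 0.09) and its kinase TYK2 (-0.43 ± 0.08) were negative in the authors' deposited table, and so was JAK1 (-0.49 ± 0.06), which both types use. IFNGR1 (0.76 ± 0.08), IFNGR2 (0.38 ± 0.07) and JAK2 (0.97 ± 0.16), which serve interferon gamma, were positive in the authors' deposited table. IFNLR1, the receptor chain specific to type III interferon, was also positive (1.57 ± 0.33), and IFNAR2 (-0.26 ± 0.15) and IL10RB (-0.02 ± 0.09) were not called. The GBP genes, known targets of interferon gamma, were positive as given above, while IRF1, another such target, was negative. Of the other factors, IRF2 (0.81 ± 0.11) was positive and STAT3 (-0.84 ± 0.05) was negative in the authors' deposited table.

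Among the regulators, SOCS3 (0.68 ± 0.07) and UBE2L6 (0.74 ± 0.13), the conjugating enzyme of ISG15, were positive in the authors' deposited table. PIAS1 (-0.67 ± 0.09) and PTPN6 (-0.96 ± 0.16), which restrain STAT and receptor signalling, were negative there. Of 13 tested sensing genes, 4 were positive and 5 negative. IFI16 (3.28 ± 0.37) and CGAS (0.54 ± 0.07) were on the positive side in the authors' deposited table, and SAMHD1 (-1.14 ± 0.11), MAVS (-0.59 ± 0.07) and IKBKE (-1.70 ± 0.25) on the negative side. MAVS is the adaptor of RIG-I and MDA5, and IFI16 and cGAS act in DNA sensing. IFNB1, IFNG and the IFNA genes searched were not listed in PANC1.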

How the data were processed

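Per the labels' protocols, total RNA from liver tumours of 4 groups of 3 samples was sequenced after a TruSeq library preparation. Per the submitters' processing notes, the tools included DESeq2 1.24, featureCounts 2.0.0, STAR 2.7.6a and MultiQC 1.9, with builds mm39 and hg19; settings, annotation, strand and model design are not given in the sources used here. The authors deposited 1 comparison table per model, per the file headers, holding a mean normalised count (a signal over libraries), a log2 fold change with its SE on the log2 scale, a Wald statistic (a score), a p-value and an adjusted p-value. A signed log10 p score in the deposited files was not used. The statistic equalled fold change over SE within 9.17e-08 in KPC, and Benjamini-Hochberg adjustment of the listed p-values gave the listed adjusted ones within 2.50e-06.

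A count test on libraries had been planned, but the tables hold no counts per library, so the authors' deposited Wald test was used, called at an adjusted p below 0.05. Depth and replicate spread are unknown here. Members and lists were chosen with earlier results of these data known. The rule for named genes was every member called in either table, with members of its family as contrasts, and up to 3 other pathway genes per list and direction by adjusted p; some genes that this rule selects are not reported here, and no cause of any difference was tested. Promoter motifs were searched in RefSeq windows, and human promoters were not used here. Alternatives were a threshold of 0.01, a minimum log2 fold change of 1 in size, adjustment that also took in genes lacking an adjusted p, restriction to 64 counts or more, recentring on such genes, a running median over 501 genes taken off, the t distribution (4 degrees of freedom), 1 table reversed in sign and a longer motif. Scripts were tested on simulated data. Software was scipy 1.17.1, pandas 2.3.3, matplotlib 3.10.9 and numpy 2.4.6 under Python 3.11.15.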

Additional observations from a re-analysis of the deposited data

Results flagged for a closer look

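For 17 members the log2 fold changes listed for the 2 models differed by the test of the difference itself (PANC1 minus KPC, adjusted over 12777 symbols, both tables taken in the same order of groups). PANC1 was lower for LGALS3BP (-1.66), PARP9 (-2.04), DDX58 (-1.90), BST2 (-3.61), IFITM3 (-2.83), DTX3L (-1.64), IFIT1 (-2.90), IFITM1 (-5.72), PARP14 (-1.56), IFIT2 (-1.30), XAF1 (-2.0), TRIM21 (-1.07), OAS3 (-1.56) and IFITM2 (-0.64). It was higher for IRF9 (0.80), IFI44 (2.84) and RSAD2 (5.76). With 1 table reversed, 4 of these members, LGALS3BP, IFITM3, IFIT1 and RSAD2, were still called. Of all 12777 symbols, 4453 differed in the first order and 1713 in both orders. In KPC, Ifi44 (count 12.1) and Rsad2 (6.21) were under 16 counts, where the median of all genes was -1.43. With the level trend subtracted, their KPC values moved from -1.49 to -0.37 and from -0.97 to 0.42, and Irf9 from -0.34 to -0.50. The differences listed for IFI44 and RSAD2 thus include part of that trend. Under that setting 17 members differed, not necessarily the same ones. The order of groups in the tables is not named, and what underlies the differences was not tested.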

How the results depend on the processing

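Values per library were not used here, so leaving out each replicate and a second count model were not run. No paired analysis was possible because the tables hold no value per sample.

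In KPC, 14 positive and 2 negative calls became 9 and 0 among genes at 64 counts or more, and 0 and 0 with a t distribution of 4 degrees of freedom, where 14 and 2 members kept an unadjusted p below 0.05. Under that t distribution 0 of all KPC genes were called. The negative calls were also 0 at an adjusted p of 0.01, after adjustment over all genes with a p, and after subtraction of the level trend, where 3, 3 and 0 negative members had an unadjusted p below 0.05. Recentring left 10 positive calls; over all genes it moved the positive share of calls from 55.7% to 23.5%, and restriction to 64 counts or more moved it to 83.4%. In PANC1, requiring an absolute log2 fold change over 1 left 5 of 12 positive and 9 of 22 negative calls. Members that differ between models numbered 17, and 11 with 1 table reversed or 9 at 64 counts or more in both. Of all 12777 symbols, 4453 differed, and 3831 with 1 table reversed. The longer motif, ending in CT, was found in 9 members and the core in 16.

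Signs turned for members that were not called. In KPC these were Trim25 (-0.14 recentred, -0.15 with the trend subtracted), Irf1 (-0.15 and -0.16), Usp18 (-0.19 recentred), and, with the trend subtracted, Ifit3 (0.23), Rsad2 (0.42), Mx2 (0.19) and Mx1 (0.11). In PANC1 they were DDX60 (0.02) and IFITM2 (0.01), both recentred. The cause was not tested.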
